A study of Mus musculus with 40 samples.

Results

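The loci described here belong to 12 families of developmental transcription factors, as found in the RNA of fully grown mouse oocytes lacking the H3K9 methyltransferase G9A, or both G9A and its partner GLP. They were chosen by gene symbol among transcript loci that overlap the named gene on its own strand. Each symbol begins with Hoxa to Hoxd, Dlx, Lhx, Pax, Sox, Fox, Gata, Tbx, Nkx, Irx, Msx or the prefix of the sine oculis homologues. A number follows somewhere after that prefix, and Lhx8 and Foxo3 were left out. This gave 84 of the 38540 loci in the RNA table, from 81 genes. Of these 84 loci, 76 encode family factors (73 genes). The symbol rule also caught 6 loci of other proteins (Gatad1, Gatad2a, Gatad2b, Paxip1, Foxred2 and Tbxas1) and 2 noncoding transcripts (Sox2ot and Dlx6as1), which are counted apart. Foxp1 had 4 loci and every other gene a single one. No Dlx factor had a locus, so the Dlx family is represented by Dlx6as1 only.

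Oocytes at the germinal vesicle stage were dissected by hand from mice aged 22 to 25 days, and 100 to 200 were pooled per sample. RNA came from 11 libraries: 3 controls and 3 G9a conditional knockouts (G9a cKO) whose titles share the prefix GKAO, and 3 controls and 2 conditional double knockouts of G9a and Glp (cDKO) that share the prefix GKAQ. H3K9me2, dimethylation of lysine 9 on histone H3, was mapped by native chromatin immunoprecipitation in 2 control, 2 G9a cKO and 2 cDKO libraries. The labels give controls only as control or WT and name neither the Cre driver, the floxed alleles nor the strain. Whether controls carried floxed alleles is therefore not known here, and what the replicates share in animals is not stated, so p-values measure the spread between these pools.

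The factors of these families bind DNA and set the identity of segments, organs and cell types in the embryo. Hox factors pattern the body axis, Pax and sine oculis factors act in organ primordia such as eye and kidney, Gata and Sox factors direct lineage choices, and forkhead (Fox) factors range from metabolic regulators to lineage determinants. In somatic lineages and in stem cells many of these genes are held silent when not in use, largely by Polycomb, and H3K9me2 placed by the G9A and GLP complex marks broad silent euchromatin. Oocytes themselves use a small set of them, for example Lhx8 and Foxo3, which the symbol rule left out.

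RNA libraries held 1458868 to 2399680 reads, control H3K9me2 libraries 7048784 and 19128881, and mutant H3K9me2 libraries 1109191 to 1881848. Levels are given as RPM, the reads of a locus scaled to each library total. Ehmt2, which encodes G9A, had 12, 13 and 9 reads in GKAO controls and 5, 11 and 2 in the libraries labelled G9a cKO, so the library labelled G9a cKO replicate 2 lay within the control range for the gene it should lack. Ehmt2 had 8, 30 and 16 reads in GKAQ controls and 5 and 5 in cDKO, and Ehmt1, which encodes GLP, had 144, 164 and 173 against 31 and 36. Of 14 oocyte marker loci 13 reached a mean of 10 RPM (3 rose and 1 fell in G9a cKO, 5 rose and 3 fell in cDKO), whereas 4 of 8 theca and stroma loci (Col3a1, Col1a2, Lum and Acta2) and the globins Hbb-b1 and Hba-a1 had no read in any library. All 3 endothelial loci and 4 of 16 loci of granulosa (follicle) cells also reached a mean of 10 RPM. In GKAO controls Pecam1 (endothelium) had 94.93 to 119.9 RPM and Nr5a2 (granulosa) 120.4 to 124.8, each the highest of its list. By contrast, the granulosa marker Amh had 0 to 1.57 RPM there and Foxl2 no read, and the endothelial marker Kdr had 6.17 to 10.6.

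Hoxd1, Foxn4 and Sox8 were called in every alternative analysis of the cDKO comparison and carry the account that follows, so the DNA just upstream of their starts is given first. Each line holds the 250 bases before the RefSeq start (GRCm38.p6), read 5′ to 3′ on the strand of the gene, with CpG dinucleotides in capitals. The window of Hoxd1 is chr2:74762730-74762979 on the plus strand, that of Foxn4 chr5:114273762-114274011 on the minus strand and that of Sox8 chr17:25570687-25570936 on the minus strand. The RefSeq starts lie 0, 46 and 43 bases from the 5′ ends of the deposited loci.
Hoxd1: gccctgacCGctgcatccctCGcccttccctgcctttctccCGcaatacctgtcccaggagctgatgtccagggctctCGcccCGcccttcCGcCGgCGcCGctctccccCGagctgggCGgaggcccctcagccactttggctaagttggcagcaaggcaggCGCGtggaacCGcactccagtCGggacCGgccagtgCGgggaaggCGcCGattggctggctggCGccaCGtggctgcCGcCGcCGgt
Foxn4: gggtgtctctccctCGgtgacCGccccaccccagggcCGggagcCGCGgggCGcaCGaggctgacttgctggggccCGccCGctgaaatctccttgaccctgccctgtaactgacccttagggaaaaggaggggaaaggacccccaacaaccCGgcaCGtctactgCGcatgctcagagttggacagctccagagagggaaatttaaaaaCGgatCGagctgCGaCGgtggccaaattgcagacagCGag
Sox8: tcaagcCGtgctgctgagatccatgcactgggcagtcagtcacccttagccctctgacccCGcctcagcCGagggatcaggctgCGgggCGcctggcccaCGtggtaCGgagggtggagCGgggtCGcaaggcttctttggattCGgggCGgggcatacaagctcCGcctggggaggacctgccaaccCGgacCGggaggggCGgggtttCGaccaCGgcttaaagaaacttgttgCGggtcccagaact
All 3 windows were rich in CpG, with 24 CpG in Hoxd1, 17 in Foxn4 and 18 in Sox8, and observed to expected CpG ratios of 0.759, 0.69 and 0.676. The 56 member genes with a RefSeq promoter in the table had a median ratio of 0.71 and 40 of them (71.4%) exceeded 0.6, against a median of 0.378 and a share of 34.4% over all 27025 genes. Only 36 of the 56 starts lie within 1 kb of the 5′ end of the deposited locus, and these had a median of 0.727, with 80.6% over 0.6. Others lie far from it, that of Sox5 by 834871 bases. The letters CCGCCC, searched on both strands and able to overlap a CpG, occurred in all 3 windows, in 39 of the 56 member genes (69.6%) and in 32.9% of all genes. TATAAA occurred in 5 member genes (8.9%, against 13.0% of all) and TAATTA, a core found in homeodomain sites, in 2 (3.6%, against 4.9%), and neither in the 3 windows shown. CpG ratios of this order were found upstream of genes whose RNA rose (Hoxd1 and Foxn4) and of the one whose RNA fell (Sox8).

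Most of these loci had few reads in oocytes. No read was found in any library at 14 of the 84 loci (16.67%), and at 32 (38.1%) no library had more than 3 reads, against 24.11% of all loci on the strand of a named gene and 50.1% of all loci in the table, which holds many unnamed transcripts. Of the loci on the strand of a named gene 8.633% had no read, and of all loci 22.41%. Averaged over the 11 libraries, 24 members reached 10 RPM and are called detected below (28.57%, against 46.2% of those named loci and 23.59% of all loci). The reads mark only loci present in the deposited table, which holds 79 of the 180 protein-coding RefSeq genes that meet the symbol rule. The files give genomic spans but no transcript lengths, so RPM of different genes shows how many reads each had and not which is more abundant per transcript.

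**Figure D1:**
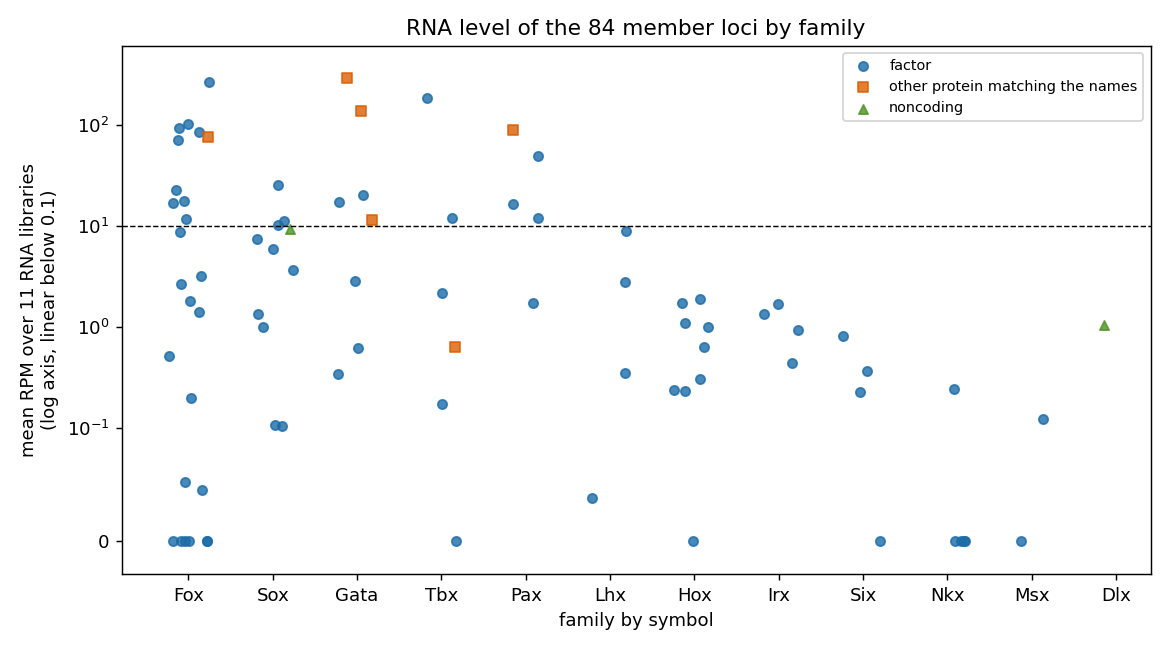
Mean RPM over the 11 RNA libraries (y axis, log scale that is linear below 0.1) of each of the 84 member loci, by family (x axis). Circles are factors, squares other proteins caught by the symbol rule and triangles noncoding transcripts; the dashed line marks 10 RPM, which 19 of the 76 factor loci exceeded, none of them a Hox, Lhx, Irx, sine oculis, Nkx or Msx factor.

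Detected factors came from 5 families: 9 Fox, 3 Pax, 3 Sox, 2 Gata and 2 Tbx. The largest number of reads fell on Foxo1, an insulin-responsive forkhead factor, with 261.8, 239.9 and 220.9 RPM in GKAO controls, 336.5, 259.5 and 268.9 in G9a cKO, 260.2, 258.4 and 235.6 in GKAQ controls and 264.8 and 268.5 in cDKO. G9a cKO overlapped its controls and both cDKO libraries lay just above theirs, and neither comparison called Foxo1 (adjusted p = 0.219 and 0.617). Foxr1, a forkhead gene known for expression in germ cells, lay between 86.4 and 125.3 RPM in all 11 libraries. Tbx4, a T-box factor of hindlimb and lung development, had 213.9, 221.5 and 196.9 RPM in GKAO controls, 190.0, 200.5 and 238.3 in G9a cKO, 164.0, 162.1 and 183.4 in GKAQ controls and 152.0 and 118.0 in cDKO. Both cDKO libraries were below all their controls, but the log2 change of -0.34 (SE 0.13) was not called (adjusted p = 0.086).

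The other families had 1 or a few loci with reads. Among Pax genes Pax2, a kidney and ear factor, held 39.1 to 57.6 RPM in every library, and Pax5, known for B cell identity, had a mean of 16.6 RPM. Paxip1, which encodes the DNA damage and histone methylation cofactor PTIP and not a Pax factor, had a mean of 87.7 RPM. Sox15 led the Sox family with a mean of 25.3 RPM, and Gata4 and Gata3 had means of 20.3 and 17.3 RPM. Tbx19, a pituitary T-box factor, had 7.53 to 14.4 RPM in GKAO controls and G9a cKO, 12.6 to 17.7 in GKAQ controls and 7.97 and 7.11 in cDKO (adjusted p = 0.128 in cDKO). Lhx2 (mean 8.96 RPM) and Lhx5 (2.81) led the LIM-homeodomain genes, Irx5 (1.7) and Irx1 (1.35) the Iroquois genes, and Msx2 (0.124) the Msx genes, with no read at Msx1. Six5 had a mean of 0.367 RPM, and 4 of the 5 Nkx loci had no read.

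In oocytes labelled G9a cKO, only 2 of the 84 loci passed the threshold of an adjusted p under 0.05, 1 higher and 1 lower, where 1.79% of all 38540 loci were called (1.05% higher and 0.737% lower). Sox8 fell and Pax6 rose. In cDKO, 9 of the 84 were called, 4 higher (Hoxd1, Foxn4, Sox12 and Foxp2) and 5 lower (Sox8, Foxc1, Foxn3, Gatad2a and Gatad2b), where 6.34% of all loci were called (4.32% higher and 2.02% lower). The 9 comprise 7 factor loci and 2 of the other proteins. Members were drawn from the 15023 loci on the strand of a named gene. Of those, 233 were called higher and 212 lower in G9a cKO, and 961 higher and 585 lower in cDKO. Without adjustment, p was under 0.05 at 8 members in G9a cKO (9.52%, against 10.5% of all loci) and at 17 in cDKO (20.2%, against 15.9%). The median log2 change over the 84 was -0.27 in G9a cKO and 0.20 in cDKO, against -0.31 and 0.20 over all loci, and these values are set mainly by loci with few reads. Over the 24 detected members the medians were -0.01 and -0.08. Mutant and control libraries did not overlap at 9 of the 84 in G9a cKO and at 32 in cDKO. The share over all loci was not counted, so lack of overlap alone says little. Both comparisons used limma on the deposited log2 values, with Benjamini-Hochberg adjustment over all loci.

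**Figure D2:**
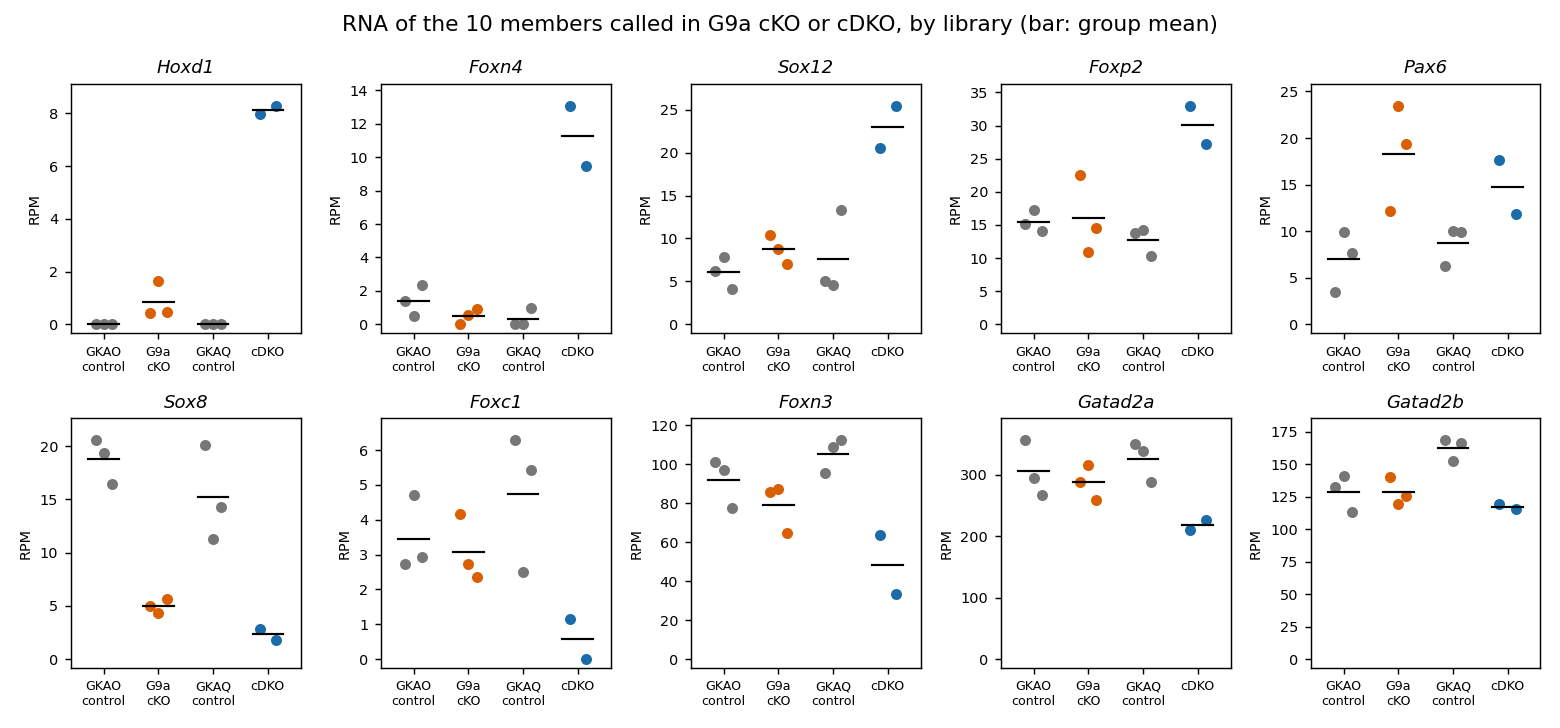
RPM (y axis, from 0) in each of the 11 RNA libraries, by group (x axis), for the 10 members called in G9a cKO or cDKO. Points are libraries and bars group means; Hoxd1 and Foxn4 had 7.97 RPM or more in both cDKO libraries and at most 2.34 in any other, and Sox8 was lower in all 5 mutant libraries than in all 6 controls.

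Sox8 (ENSMUSG00000024176, chr17:25565888-25570729, minus strand), a SOX9-related factor active in testis, neural crest and glia, was the member that fell in both genotypes. It had 20.6, 19.4 and 16.4 RPM (30, 37 and 28 reads) in GKAO controls and 5.01, 4.37 and 5.65 RPM (12, 8 and 12 reads) in the libraries labelled G9a cKO. GKAQ controls had 20.1, 11.3 and 14.3 RPM (32, 27 and 29 reads) and cDKO 2.85 and 1.78 RPM (5 and 3 reads). Every mutant library was below every control of either series. On the log2 scale Sox8 fell by 1.91 in G9a cKO (SE 0.40, adjusted p = 3.64e-04). In cDKO it fell by 2.72 (SE 0.45, adjusted p = 1.88e-07). Summed reads gave a level 3.72-fold lower in G9a cKO (95% counting interval 2.47 to 5.73) and 6.29-fold lower in cDKO (3.06 to 15.03). The difference between the effects was not called (log2 difference -0.81, SE 0.60, adjusted p = 0.319). Without the library labelled G9a cKO replicate 2, Sox8 remained called in G9a cKO (log2 change -1.81, adjusted p = 0.00589), while with 0.5 or 1 RPM added to each value its adjusted p was 0.0502 and 0.0539.

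Pax6 (ENSMUSG00000027168, chr2:105674566-105697160, plus strand), the eye, brain and pancreas factor, rose in G9a cKO. It had 3.43, 9.95 and 7.62 RPM (5, 19 and 13 reads) in GKAO controls and 12.1, 23.5 and 19.3 RPM (29, 43 and 41 reads) in G9a cKO, so the groups did not overlap. The log2 change was 1.47 (SE 0.36, adjusted p = 0.00542). In cDKO, 17.7 and 11.9 RPM stood against 6.29, 10.0 and 9.86 in controls, a log2 change of 0.76 (SE 0.40) that was not called (adjusted p = 0.346). The call in G9a cKO was lost without the library labelled G9a cKO replicate 2 (adjusted p = 0.128), without G9a cKO replicate 3 (0.0522) and without GKAO control replicate 1 (0.193), with either added constant (0.312 and 0.279), with precision weights (0.155) and with the title number as a covariate (0.0514). The locus begins 5670 bases inside the nearest RefSeq start and covers 76.6% of the gene.

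Hoxd1 (ENSMUSG00000042448, chr2:74762980-74765143, plus strand), at the 3′ end of the Hoxd cluster, rose in cDKO from no read. It had 0 reads in all 6 controls, 1, 3 and 1 reads in G9a cKO (0.418, 1.64 and 0.471 RPM) and 14 and 14 reads in cDKO (7.97 and 8.3 RPM). Against a floor of 3 reads over the control group, Hoxd1 was 16.3-fold higher in cDKO (adjusted p = 7.79e-06) and 1.33-fold higher in G9a cKO, where it was not called (adjusted p = 0.736). Neither ratio allows for counting error in the mutant reads. The effects of the genotypes differed for Hoxd1 (log2 difference 3.80, SE 1.03, adjusted p = 0.0297), but not under 9 of 17 alternatives, including without GKAO control replicate 1, 2 or 3 (0.0776, 0.0538 and 0.0697), without G9a cKO replicate 1 or 3 (0.138 and 0.11) and without GKAQ control replicate 2 or 3 (0.102 and 0.0794).

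No other Hox locus was called in either genotype. Of 9 Hox loci (3 Hoxa, 1 Hoxb, 1 Hoxc and 4 Hoxd), none was detected. In the Hoxd cluster, Hoxd9 had 0, 1 and 7 reads in GKAQ controls and 5 and 4 in cDKO (adjusted p = 0.345), Hoxd13 had 0, 2 and 4 against 6 and 1 (adjusted p = 0.653), and Hoxd12 had 5 reads in all 11 libraries together. Hoxb4 had the most reads among the other clusters, with 1 to 9 reads in each control and 3 and 0 in cDKO (adjusted p = 0.456). Hoxa13, the highest Hoxa locus, had 0 to 4 reads in each library, and Hoxc13, the sole Hoxc locus, had none.

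Foxn4 (ENSMUSG00000042002, chr5:114254164-114273807, minus strand), a forkhead factor of retinal progenitors and spinal interneurons, also rose in cDKO. It had 2, 1 and 4 reads in GKAO controls, 0, 1 and 2 in G9a cKO, 0, 0 and 2 in GKAQ controls and 23 and 16 in cDKO (13.1 and 9.49 RPM). The cDKO libraries were above all 9 others, and summed reads gave a 34.1-fold ratio to controls, with a counting interval of 8.83 to 291.4 because controls held 2 reads in all. The log2 change was 4.23 (SE 0.81, adjusted p = 1.67e-05) in cDKO and -1.04 (SE 0.72, adjusted p = 0.304) in G9a cKO. The difference between them was called (5.27, SE 1.08, adjusted p = 5.06e-04), but not with 0.5 or 1 RPM added (adjusted p = 0.119 and 0.068).

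Sox12 and Foxp2 rose less steeply in cDKO. Sox12 (ENSMUSG00000051817, chr2:152393611-152410050, minus strand), a SoxC factor of neural and mesenchymal progenitors, had 5.03, 4.58 and 13.3 RPM (8, 11 and 27 reads) in GKAQ controls and 20.5 and 25.5 RPM (36 and 43 reads) in cDKO, a log2 change of 1.76 (SE 0.44, adjusted p = 0.00228). The groups did not overlap, though the Sox12 call was lost without cDKO replicate 2 (adjusted p = 0.0815) and with 0.5 or 1 RPM added (0.122 and 0.0962), and only 27.0% of the locus lies within the RefSeq gene. Foxp2 (ENSMUSG00000029563, chr6:14901349-15441977, plus strand), a factor of brain and lung development, had 13.8, 14.2 and 10.4 RPM in GKAQ controls and 33.0 and 27.3 in cDKO, a log2 change of 1.25 (SE 0.33, adjusted p = 0.00591). Its groups did not overlap either, and the call was lost without cDKO replicate 1 (adjusted p = 0.136), without GKAQ control replicate 3 (0.0542) and with either added constant (0.0821 and 0.0682). In G9a cKO neither was called (log2 changes 0.57 and -0.01, adjusted p = 0.303 and 0.992).

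Foxn3 and Foxc1 fell in cDKO. Foxn3 (ENSMUSG00000033713, chr12:99190078-99564151, minus strand), a forkhead repressor linked to the cell cycle, had 95.5, 108.8 and 112.4 RPM in GKAQ controls and 63.8 and 33.2 in cDKO, a log2 change of -1.19 (SE 0.17, adjusted p = 1.98e-09). The groups did not overlap, although the cDKO libraries differed from each other by 0.94 on the log2 scale. In G9a cKO Foxn3 had 86.0, 87.4 and 64.5 RPM against 101.4, 96.9 and 77.4 (log2 change -0.22, adjusted p = 0.327). The effects differed (-0.98, SE 0.23, adjusted p = 0.00651), but not without cDKO replicate 2 (-0.51, adjusted p = 0.358), with precision weights (0.211) or with 0.5 or 1 RPM added (0.558 and 0.498). Foxc1 (ENSMUSG00000050295, chr13:31806577-31810642, plus strand), a mesoderm and eye factor, had 10, 6 and 11 reads in GKAQ controls and 2 and 0 in cDKO, with 4 to 10 reads in each of the other libraries. Summed reads of Foxc1 gave a level 7.72-fold lower in cDKO with a wide counting interval of 1.94 to 67.0 (log2 change -2.50, SE 0.69, adjusted p = 0.00801). That call rested on few reads and was lost without cDKO replicate 2 (adjusted p = 0.182), GKAQ control replicate 1 (0.0721) or GKAQ control replicate 3 (0.0552), and with either added constant (0.0779 and 0.0665), as was that of Foxn3 (0.0745 and 0.0573).

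The remaining 2 loci that fell, Gatad2a and Gatad2b, are not GATA factors but encode the p66 subunits of the NuRD complex, which combines chromatin remodelling with histone deacetylation. Gatad2a (ENSMUSG00000036180, chr8:69907069-69996387, minus strand) had 350.7, 339.2 and 288.8 RPM in GKAQ controls and 210.7 and 226.5 in cDKO, a log2 change of -0.57 (SE 0.11, adjusted p = 5.63e-06). Gatad2b (ENSMUSG00000042390, chr3:90293177-90363403, plus strand) had 168.4, 152.5 and 166.1 RPM against 119.0 and 115.6, a log2 change of -0.47 (SE 0.14, adjusted p = 0.0209). Both cDKO libraries were below all 3 controls for each gene, but the GKAO controls of Gatad2b, at 113.1 to 140.9 RPM, spanned the cDKO values, and with all 6 controls pooled its log2 change was -0.30 (adjusted p = 0.322). Gatad2b was also not called without cDKO replicate 1 or 2 (adjusted p = 0.08 and 0.12) or without GKAQ control replicate 1 or 3 (0.0877 and 0.0917), and neither gene with 0.5 RPM (0.0935 for Gatad2a, 0.0708 for Gatad2b) or 1 RPM (0.0751 and 0.0637) added. In G9a cKO neither was called (log2 changes -0.08 and 0.00, adjusted p = 0.543 and 0.996), and the difference between the effects was called for Gatad2a only (-0.49, SE 0.14, adjusted p = 0.0488). That call was lost under 10 of 17 alternatives, among them the filter of 10 reads (0.0818), precision weights (0.279) and leaving out G9a cKO replicate 1 or 2 (0.0961 and 0.0953), cDKO replicate 1 (0.14), GKAO control replicate 2 or 3 (0.113 and 0.244) or GKAQ control replicate 2 (0.173).

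**Figure D3:**
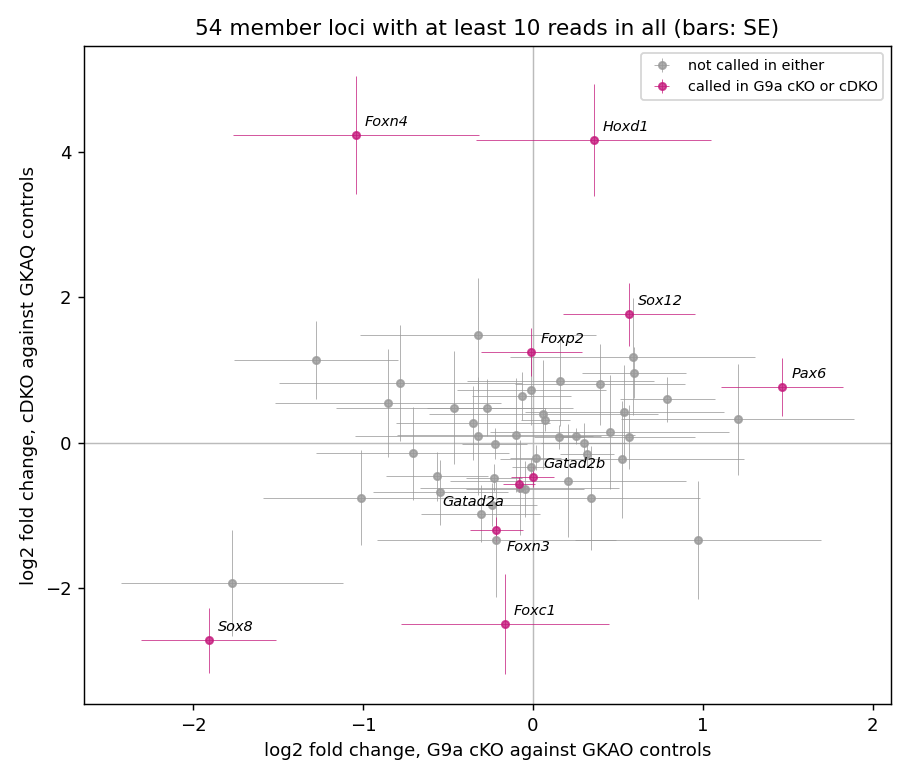
Log2 fold change in G9a cKO (x axis) and in cDKO (y axis), each against the controls of its own title prefix, for the 54 members with at least 10 reads in all libraries together. Bars are standard errors and the 10 labelled members were called in at least 1 genotype; Sox8 lies low on both axes, whereas Hoxd1 and Foxn4 stand above 4 in cDKO.

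Over all 84 members, 4 were called for the difference between the effects of the genotypes (Foxn4 and Hoxd1 higher in cDKO relative to G9a cKO, Foxn3 and Gatad2a lower), where 1.08% of all loci were called. Among the 15023 loci on the strand of a named gene, 181 were called higher and 127 lower for that difference. Sox6, a factor of cartilage and erythroid cells, came close, with 2.09, 2.73 and 5.18 RPM in G9a cKO and 7.97 and 10.1 in cDKO against 4.8 to 11.5 and 2.5 to 6.91 in their controls (log2 difference 2.41, SE 0.73, adjusted p = 0.0686). Between the control series a single member was called, where 3.87% of all loci were: Foxp4 had 11.7, 14.1 and 8.79 RPM in GKAO controls and 11.3, 0.833 and 6.9 in GKAQ controls (log2 difference -1.49, adjusted p = 0.0321), and GKAQ control replicate 2, with 2 reads, stood apart.

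Reads on opposite strands and from other cells bear on some of these values. Loci on the other strand overlap 21 of the 84, and no source used here says if reads were counted by strand. Among the called members, Gatad2b overlaps a locus with 1278 reads in all that was itself lower in cDKO (log2 change -0.62, adjusted p = 0.0311), Foxp2 overlaps one with 85 reads, and Foxn3 overlaps a pair with 15 and 27 reads. In pooled oocytes, fewer cells of a type and less RNA per cell cannot be told apart. Granulosa markers, for follicle cells that surround the oocyte, summed to 272.3 to 293.6 RPM over 16 loci in GKAO controls, 220.0 to 267.7 in G9a cKO, 242.0 to 264.2 in GKAQ controls and 230.6 to 260.8 in cDKO. Most of each sum came from Nr5a2, Esr2 and Cyp19a1, with 120.4 to 124.8, 67.2 to 84.4 and 35.0 to 48.6 RPM in GKAO controls. The sums therefore say little about the other loci. None of the 16 was called in G9a cKO and 2 rose in cDKO, Inha (log2 change 2.26, adjusted p = 0.00472) and Fshr (2.15, adjusted p = 0.03). Inha had 6.83 to 10.1 RPM in cDKO and 0.986 to 4.17 in GKAQ controls, but GKAO controls, at 5.48 to 7.33, overlapped cDKO. Foxl2 and Gata4 are members as well as granulosa markers. Foxl2 had 0 to 4 reads in every library. Gata4 had 20.6, 15.2 and 12.3 RPM in GKAO controls against 27.1, 27.9 and 26.4 in G9a cKO, without overlap but not called (adjusted p = 0.14). Of 3 endothelial loci, which summed to 147.1 to 180.2, 145.0 to 163.2, 105.0 to 139.2 and 134.6 to 136.1 RPM in the same order of groups, Kdr rose in cDKO (1.71, adjusted p = 0.00125), and of 8 theca and stroma and 4 blood loci none was detected or called. The part of other cells in the member results was not tested.

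Related factors outside the symbol rule were counted in the same way. Among 37 loci of other developmental families (35 of 78 listed genes, such as Otx1, Pou3f1 and Isl1), 6 were detected, 1 rose and 1 fell in G9a cKO and 1 rose in cDKO. Hhex, a homeobox factor of liver and forebrain, rose in G9a cKO (log2 change 0.48, adjusted p = 0.0136), Isl2, a motor neuron LIM factor, fell there (-1.997, adjusted p = 0.00193) with 15, 26 and 24 reads in controls and 8, 6 and 6 in G9a cKO, and Gbx2, a midbrain and hindbrain factor, rose in cDKO (0.35, adjusted p = 0.0224). Of 9 loci of the TALE homeodomain partners of Hox proteins, Meis2 rose in cDKO, from 865.5 to 927.6 RPM in controls to 1128 and 1201 (log2 change 0.38, adjusted p = 1.92e-06), and none was called in G9a cKO. Both genes excluded by the rule were detected, and Foxo3 fell in cDKO (-0.39, adjusted p = 0.00115) while Lhx8 was not called in either genotype.

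H3K9me2 was read over the members as mean RPM of the 10 kb windows that overlap each locus, 600 windows in all. Because each library is scaled to its own total, these values show how the reads are spread along the genome and not how much H3K9me2 there is. They were not set against input or IgG, so background reads were not taken off. In controls the members had a median of 3.7 RPM per window, close to the genome mean of 3.67 and to the median of 3.9 over all loci. The highest in controls were Foxo4 (5.25 and 5.59 RPM per window), Pax5 (5.16 and 5.34), Foxs1 (5.11 and 5.23), Sox13 (4.99 and 5.29) and Sox7 (5.25 and 4.91). Among the lowest were Msx1 (2.41 and 2.25), Foxd3 (3.12 and 1.88), Hoxa13 (2.7 and 2.8) and Hoxb4 (2.55 and 2.9), each covered by 1 or 2 windows.

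No member passed the H3K9me2 test in either genotype, where 0.0% of 38480 loci were called in G9a cKO and 0.0% in cDKO by limma on 2 against 2 libraries. On simulated data of the same depth this test recovered 0% of loci changed by 1 or 2 on the log2 scale. That simulation changed only a small set of loci, which may differ from these data. The absence of calls therefore says little. At an unadjusted p under 0.05 there were 13 members in G9a cKO (15.5%, against 23.7% of all loci) and 5 in cDKO (5.95%, against 13.8%), and the smallest adjusted p of a member was 0.0651 and 0.272. Both contrasts share the control libraries. The median log2 change of the 84 members was -0.31 in G9a cKO, with 22 above 0, and -0.04 in cDKO, with 40 above 0, against 0.00 and 0.09 over all loci. A lower median in G9a cKO was not particular to the members. It was -0.42 over the 37 loci of other developmental families and -0.21 over the TALE loci, but 0.44 over the oocyte markers. Over single windows it was -0.43 for members and -0.22 for all windows. Mutant libraries were shallower than controls, and the part of depth in these medians was not tested. On single windows, 2 of the 600 were called in G9a cKO, where 1.85% of windows were called, and none in cDKO, where 0.0% were, with 80 of the 600 in G9a cKO (13.3%, against 19.2% of all windows) and 40 in cDKO (6.67%, against 9.0%) at an unadjusted p under 0.05. Both called windows gained: one in Foxk2 (chr11:121300001-121310000) had 4.11 and 3.87 RPM in controls and 14.0 and 13.5 in G9a cKO (log2 change 1.79, adjusted p = 0.0358), and one in Foxn2 (chr17:88470001-88480000) had 3.26 and 3.61 against 9.15 and 9.92 (1.47, adjusted p = 0.0438). Neither window was called without G9a cKO replicate 2 or without either cDKO library.

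Because that test called no locus, limma was also run with precision weights from the recovered reads, a choice made after seeing the data. It called 15 members in G9a cKO, 6 higher and 9 lower, where it called 21.5% of all loci (17.7% higher and 3.79% lower), and 8 in cDKO, 7 higher and 1 lower, where it called 14.7% (13.2% higher and 1.55% lower). With so many loci called, a single call says little. Foxn2, a forkhead factor, gained most in both genotypes, from 3.22 and 3.71 RPM per window in controls to 7.54 and 9.77 (G9a cKO) and to 10.1 and 7.0 (cDKO) (weighted log2 change 1.24 and 1.23, adjusted p = 2.92e-14 and 3.83e-15). Foxk1 and Foxk2, forkhead regulators of metabolism, followed, at 3.16 to 3.82 RPM per window in controls and 5.56 to 6.64 in all 4 mutant libraries of each. Foxp4 and Foxn3 were also called higher in both genotypes, Paxip1 in G9a cKO and 2 loci of Foxp1 in cDKO. RNA of these genes was not called at any but Foxn3, which fell in cDKO, and Foxn2 had 48, 72 and 71 RNA reads in GKAQ controls and 24 and 38 in cDKO (log2 change -0.85, adjusted p = 0.0615).

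**Figure D4:**
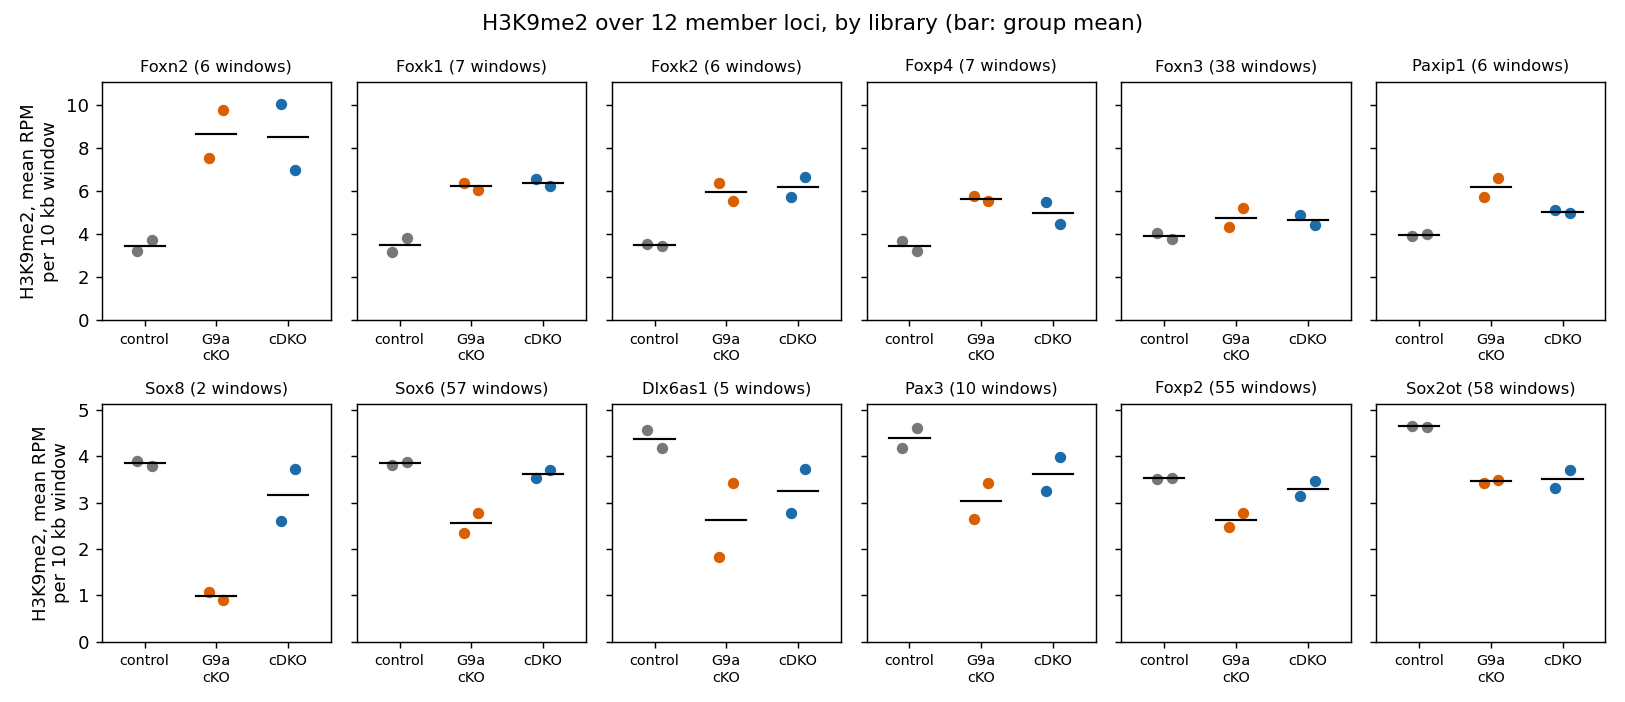
Mean H3K9me2 RPM per 10 kb window (y axis, from 0) in each of the 6 H3K9me2 libraries, by genotype (x axis), for 6 members called higher (top) and 6 called lower (bottom) in G9a cKO with precision weights. Points are libraries and bars group means; the mutant libraries of Foxn2, Foxk1 and Foxk2 lie above both controls, whereas those of Sox2ot lie below.

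The members called lower in G9a cKO were Sox6, Sox2ot, Foxp2, Sox5, Pax3, Dlx6as1, Foxo1, Sox8 and Foxr1, which span 4.8 to 953.6 kb. Sox6, over 57 windows, had 3.82 and 3.88 RPM per window in controls, against 2.34 and 2.78 (G9a cKO) and 3.52 and 3.71 (cDKO) (weighted log2 change -0.62 in G9a cKO, adjusted p = 7.82e-11). Sox2ot, the transcript that runs across Sox2, had 4.66 and 4.64 in controls, against 3.43 and 3.5 (G9a cKO) and 3.32 and 3.7 (cDKO), and was the member called lower in both (-0.43 and -0.40, adjusted p = 4.78e-07 and 6.96e-07). Sox8 had 55 and 145 H3K9me2 reads in controls (3.9 and 3.79 RPM per window), 4 and 2 reads in G9a cKO (1.08 and 0.902) and 9 and 14 in cDKO (2.61 and 3.72), with a weighted log2 change of -1.71 in G9a cKO (adjusted p = 0.027) on these few reads. The RNA of Sox8 was lower in both genotypes.

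At the members whose RNA rose most in cDKO, H3K9me2 was not called in either analysis. Hoxd1, covered by 1 window, had 3.69 and 3.56 RPM in controls and 2.32 and 3.19 in cDKO (4 and 6 reads; weighted adjusted p = 0.8). Foxn4 had 3.64 and 3.89 in controls and 6.96 and 4.07 in cDKO (weighted adjusted p = 0.121), and Sox12 had 3.88 and 3.52 against 2.9 and 3.37 (0.739). These mutant libraries had 1109191 to 1881848 reads, so single windows rest on few reads.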

How the data were processed

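The members and gene lists were chosen with earlier results of these data known. The authors deposited RNA and H3K9me2 files as log2 values, 1 column per library, with no unit in the file headers. Per the submitters' processing notes the tools included Trim Galore, Bowtie2, HISAT2 2.1.0 and Bismark 0.19.0 and the build was GRCm38, while the counting method is not given in the sources used here. The values were inferred to be log2 RPM, with 0 reads entered as 0.9 read, because 100% of values gave whole reads (within 0.05 read). Of the H3K9me2 columns, 4 match no sample and were not used. Bisulphite, input and IgG samples were not analysed here.

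RNA was tested with limma 3.58.1 in R 4.3.3 with data.table version 1.17.8 (1 mean per group over 11 libraries, variance trend, robust, two-sided) on the deposited values over all 38540 loci, with Benjamini-Hochberg adjustment and calls at an adjusted p under 0.05. H3K9me2 was tested alike over 6 libraries, on loci with a read and on 255057 of 272158 windows with a read. Scripts were tested on simulated data. Python 3.11.15, pandas 2.3.3, numpy 2.4.6, scipy 1.17.1 and matplotlib 3.10.9 were used. Counting intervals are exact 95% binomial intervals of summed reads and cover counting error only, and a group at 0 was set to a floor of 3 reads over the group.

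Named members are those called in any RNA contrast, the 2 with most reads in each family, those with at least 10 reads in each library of a mutant and at most 3 in each control, the highest of each Hox cluster, members called for H3K9me2 and the 5 highest and lowest in control H3K9me2. Some members that this rule names are not reported here. Others named (Foxn2, Sox6, Foxp4, Gata4 and the members called with precision weights) were chosen after their values were seen. Alternatives were constants of 0.5 and 1 RPM, a filter of 10 reads, centring, precision weights, the title number as a covariate, pooled controls, only the groups compared, windows within 50 kb and leaving out each library. Of the 84 members, 83 matched RefSeq by symbol or ID, and 70 loci cover at least 50% of their gene. Promoters are credited to RefSeq (GRCm38.p6), using for each member the start nearest the 5′ end of its locus and for all genes the first listed.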

Additional observations from a re-analysis of the deposited data

Results flagged for a closer look

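At 4 members the effect of the double deletion differed from that of the G9a deletion by a test of the difference itself (limma, Benjamini-Hochberg over all loci), and all 4 rest on 11 libraries. For Hoxd1 the difference of log2 effects was 3.80 (adjusted p = 0.0297), with 14 and 14 reads in cDKO and 0 to 3 reads in every other library. For Foxn4 it was 5.27 (adjusted p = 5.06e-04), with log2 changes of -1.04 in G9a cKO (not called) and 4.23 in cDKO. Foxn3 differed by -0.98 (adjusted p = 0.00651), with 112 and 56 reads in cDKO. Gatad2a differed by -0.49 (adjusted p = 0.0488), close to the threshold, and over its alternatives the adjusted p ranged from 0.0106 to 0.577.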

How the results depend on the processing

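No RNA call of the 10 members called in a mutant changed direction under any alternative; members called for H3K9me2 were not followed one by one. The 9 members called in cDKO became 4 with 0.5 or 1 RPM added to each value, of which Hoxd1, Foxn4 and Sox8 were shared and the other was Sox3, with at most 1 read in any library. The 2 called in G9a cKO became 0 with either constant and 1 with precision weights. The 4 called for the difference became 1 with either constant (again Sox3) and 2 with precision weights, and the 1 between control series became 0 with the filter of 10 reads, precision weights, either constant or the title number as a covariate. Over all loci the cDKO calls fell to 684 higher and 272 lower with 0.5 RPM added. Centring each library on its detected loci, whose median shifted by 0.094 log2 in cDKO, gave 4 members higher and 8 lower in place of 4 and 5, and 1290 loci higher and 1140 lower over the genome in place of 1665 and 779.

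Leaving out 1 library gave 1 to 2 calls in G9a cKO, 6 to 10 in cDKO, 2 to 24 for the difference and 0 to 1 between controls. The low value in G9a cKO came without GKAO control replicate 1 or G9a cKO replicate 2 or 3, and the 6 in cDKO without GKAQ control replicate 3. The 24 came without GKAQ control replicate 1, and 18 of them had at most 3 reads in every library. That fit called 14162 loci higher and 543 lower of all 38540, so the rise was not particular to the members. The 2 came without G9a cKO replicate 1, GKAO control replicate 2 or 3, or GKAQ control replicate 2. Between controls, leaving out either cDKO library, any GKAO control or GKAQ control replicate 2 gave 0.

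For H3K9me2 the 0 member loci became 15 in G9a cKO and 8 in cDKO with precision weights, added after seeing the data, and 23 and 10 over windows within 50 kb (27.4% and 11.9%, against 31.9% and 13.9% of all loci). The 2 windows in G9a cKO became 12 over all windows of the table, 4 after centring and 36 with precision weights, and 0 to 34 on leaving out a library (34 without G9a cKO replicate 1, 0 without G9a cKO replicate 2 or either cDKO library, 1 without control replicate 1). The 0 windows in cDKO became 4 over all windows and 14 with precision weights. Over the whole genome, G9a cKO had 28289 windows higher and 3764 lower of 272158 when all windows were kept. It had 8920 higher and 231 lower of 255057 after centring, and 22002 higher and 7655 lower with precision weights. In cDKO the calls were 20102 higher and 430 lower over all windows, and 7508 higher and 770 lower with precision weights. The cause of these shifts was not tested. The labels number no replicates. The number in the RNA titles was fitted as a covariate. It set apart only numbers shared by control and mutant libraries, and GKAQ libraries with unshared numbers stayed at a common level. That fit gave 2 calls in G9a cKO (Sox8 kept, Pax6 lost at an adjusted p of 0.0514), 10 in cDKO and 5 for the difference. All 9 cDKO calls and all 4 difference calls made without the covariate were among them. Single H3K9me2 loci rest on few reads in mutants and on a test of 2 against 2 libraries.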

Other observations

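Genes next to the called members were looked up within 100 kb. In G9a cKO no neighbour of any of the 10 called members was called. In cDKO, 1 of 5 neighbours of Foxn4, 1 of 9 of Hoxd1 and 1 of 16 of Gatad2b were called, and none near the other 7, which makes 3 of 63 (4.76%) where 6.34% of all loci were called. Acacb, the acetyl-CoA carboxylase gene 3401 bases from Foxn4 on the other strand, fell from 205, 322 and 307 reads in GKAQ controls to 142 and 123 in cDKO (log2 change -0.84), opposite to Foxn4. The noncoding locus 6720416L17Rik lies 84 bases from Hoxd1 on the other strand and had 0 reads in all controls and G9a cKO libraries and 5 and 0 in cDKO (adjusted p = 0.0293), so its call rests on a single library. Mtx2, 60598 bases from Hoxd1, was not called (log2 change 0.35, adjusted p = 0.565).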
